A study of Mus musculus with 4 samples.

Results

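The genes described here code for the activating receptor Trem2, the adaptors Tyrobp (DAP12) and Fcer1g (the Fc receptor γ chain), the kinase Syk, the lectin receptor Clec7a (Dectin-1) and the Fcγ receptors Fcgr1, Fcgr2b, Fcgr3 and Fcgr4. They were listed by name, and 8 of these 9 genes matched, by symbol, a row among the 32285 genes of the count files. Clec7a is not analysed here. Expression was measured by single-cell RNA sequencing of stromal vascular cells from mouse brown adipose tissue (BAT), in 4 libraries with 1 library per group. WT was C57BL6/J mice aged 10 weeks, and the 8-week db/db and 16-week db/db libraries were from mice of those ages whose leptin receptor gene is mutated and which become obese and diabetic (db/db 8w and db/db 16w in the plots). HFD was from mice on a high-fat diet, with a recorded age of 10 weeks. The study describes WT mice put on the diet at the age of 10 weeks, so the recorded age may not be the age at collection. All groups were described as male, and each library pooled the cells of several mice. The comparison asks in which macrophages of lean and obese BAT these receptors and their signalling partners were found, and at what level. As there was no replicate library, no difference could be tested, and every 95% interval given below covers only the error of counting, so that differences among mice or preparations are outside it.

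TREM2 is a lipid- and lipoprotein-binding receptor of macrophages and microglia. It has no signalling motif of its own and pairs in the membrane with TYROBP, whose cytoplasmic tail carries an immunoreceptor tyrosine-based activation motif (ITAM). The activating Fcγ receptors FcγRI (Fcgr1), FcγRIII (Fcgr3) and FcγRIV (Fcgr4) bind the constant part of IgG and pair in the same way with the γ chain Fcer1g. Once Src-family kinases phosphorylate the ITAM tyrosines, the kinase SYK docks on them and starts the signal for phagocytosis and cytokine release. FcγRIIB (Fcgr2b) instead carries an inhibitory motif (ITIM) that recruits the phosphatase SHIP1 and limits the signal. In adipose tissue TREM2 is known as a marker of lipid-associated macrophages (LAMs), which gather around lipid-filled adipocytes in obesity, whereas perivascular macrophages (PVMs) are the resident cells along vessels.

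The motifs that couple these receptors to their signals are shown as the coding bases of the mouse reference (GRCm38), 5′ to 3′ along the transcript, with the tyrosine codons in capitals. The ITAM of Tyrobp is read from codons 92 to 106 and that of Fcer1g from codons 65 to 79, each split between the last 2 of 5 exons. The ITIM of Fcgr2b lies in codons 317 to 322, in the last of 8 exons of the transcript read. No ITAM, read as a pair of tyrosines each with leucine or isoleucine as the third residue after it, was found in the coding sequences of Trem2, Syk, Fcgr1, Fcgr2b, Fcgr3 or Fcgr4. The 6-codon pattern by which the ITIM was located also matched 3 times in Fcgr1 and 1 time each in Fcgr4, Tyrobp and Fcer1g, so a match describes the letters and is not by itself a working motif.
Tyrobp ITAM: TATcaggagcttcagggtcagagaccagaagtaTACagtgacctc
Fcer1g ITAM: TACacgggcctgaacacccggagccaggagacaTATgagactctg
Fcgr2b ITIM: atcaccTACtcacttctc

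On GRCm38, Trem2 lies at chr17:48346401-48354147 (plus strand), Tyrobp at chr7:30413760-30417585 (plus), Syk at chr13:52583173-52648792 (plus) and Fcgr1 at chr3:96282909-96293969 (minus). The other 4 genes share a stretch of chromosome 1 in the order Fcgr2b (chr1:170958617-170976547, minus), Fcgr4 (chr1:171018920-171029761, plus), Fcgr3 (chr1:171051174-171064935, minus) and Fcer1g (chr1:171229572-171234365, minus). Fcgr2b and Fcgr3 are related in sequence. Of the 1467 windows of 50 bases in the last 500 bases of the Fcgr2b transcripts, where 3′ reads fall, 33 (2.25%) were also present in Fcgr3, whereas 0 of the 922 windows of Fcgr3 were found in another gene. The antisense gene Gm38204 overlaps Fcgr2b. PU.1, the myeloid transcription factor encoded by Spi1, binds a purine-rich core. Its letters GAGGAAG were searched on both strands in the RefSeq promoters of GRCm38.p6 (250 bases before to 50 after the start), where 13.6% of 32851 promoters held them. They were found in the promoters of Trem2, Fcgr1, Fcgr4 and Fcgr3, in each case on the strand opposite to the gene, and not in the windows of Fcgr2b, Fcer1g and Syk. Tyrobp was not searched. The following 3 of these stretches are printed on the strand of the gene, with the match in capitals, as they show the same 7 letters just upstream of genes expressed in macrophages. They come from chr17:48346335-48346374 (41 bases before the start of Trem2), chr3:96294011-96294050 (56 before Fcgr1) and chr1:171018878-171018917 (23 before Fcgr4), and none of them overlaps an annotated exon of its gene.
Trem2: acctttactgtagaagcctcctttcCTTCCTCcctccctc
Fcgr1: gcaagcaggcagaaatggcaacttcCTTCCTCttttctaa
Fcgr4: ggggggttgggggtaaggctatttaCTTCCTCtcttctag

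After quality filtering 28887 cells remained, between 5462 and 11648 per library, with a median of 2733 to 6219 UMIs (transcript molecules) per cell. Cells were assigned by their raw marker UMIs, with none of the 8 genes among the markers, and 76.8 to 91.6% of them received a lineage. Macrophages, defined by C1qa, C1qb, C1qc, Adgre1, Mrc1, Ms4a7 and Cd68, numbered 1263 in WT, 3305 in 8-week db/db, 2208 in 16-week db/db and 1641 in HFD, all 7 markers were seen in each library, and their median depths lay between 4683 and 6066 UMIs. The libraries differed in other ways. The median mitochondrial share of UMIs was 0.799% in 16-week db/db and 4.29 to 10.5% in the other libraries. In HFD 68.5% of barcodes were over the mitochondrial limit and 31.3% were kept, against 1.04 to 35.6% over it and 63.6 to 89.5% kept elsewhere. Xist, a transcript of female cells, was seen in 37.7% of 16-week db/db cells and in at most 0.421% elsewhere, and Y-linked genes were seen in 6.10% against 43.1 to 62.7%, so the 16-week db/db library stood apart and went against the described sex. Between pairs of libraries 7 to 25 cell barcodes were shared. In macrophages the summed level of the inflammatory genes Il1b, Ccl3, Ccl4, Cxcl2 and Tnf was 12537 CPM in WT, 20745 in 8-week db/db, 827 in 16-week db/db and 4119 in HFD, and that of the 7 stromal markers ranged from 24.7 CPM in 16-week db/db to 336 in WT. Markers of other tissue cells in macrophages were highest in HFD, with those of endothelial cells at 5.45, 22.6, 41.4 and 198 CPM in WT, 8-week db/db, 16-week db/db and HFD, those of mural cells at 4.50, 3.41, 5.30 and 78.2 CPM and those of adipocytes at 6.99, 4.70, 1.45 and 45.9 CPM in the same order. Markers of other blood cells summed in macrophages to 33.1 to 275 CPM for the 5 of monocytes, 21.3 to 163 for the 6 of neutrophils, 43.4 to 262 for the 5 of B cells and at most 2.18 for the 7 of NK cells, of which 6 were at 0 in WT and in 16-week db/db. The part of these differences in the values below was not tested, and they cannot be told apart from the group where 1 library makes up the group.

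Trem2 transcripts were more abundant in macrophages of every obese library than in WT. Levels are given in CPM, the UMIs of a gene summed over the macrophages, divided by all their UMIs and scaled in the usual way. Trem2 was at 119 (95% interval 112 to 126) CPM in WT, 522 (95% interval 512 to 532) in 8-week db/db, 1157 (95% interval 1141 to 1174) in 16-week db/db and 1194 (95% interval 1175 to 1213) in HFD. The ratio to WT was 4.40-fold in 8-week db/db, 9.74-fold in 16-week db/db and 10.1-fold in HFD, or 2.14 (2.04 to 2.23), 3.28 (3.19 to 3.38) and 3.33 (3.24 to 3.42) on the log2 scale, and none of the 4 intervals of the level overlapped. The 16-week db/db level exceeded that of 8-week db/db by 1.15 (1.11 to 1.18) and differed from HFD by -0.05 (-0.08 to -0.01). Trem2 UMIs were also found in more cells, in 32.1% of macrophages in WT, 46.7% in 8-week db/db, 85.1% in 16-week db/db and 83.2% in HFD. After each cell was thinned to 1000 UMIs these shares were 9.32, 23.6, 56.4 and 52.3%, with 18, 291, 76 and 0 shallower cells left out. In stromal cells, which should lack Trem2, the thinned shares were 0.173, 1.32, 1.15 and 4.08% in the same order, at median depths before thinning of 3107 to 7156 UMIs.

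Both adaptors were present in most macrophages of all groups, and their levels differed between libraries much less than that of Trem2. Tyrobp was at 1196 CPM in WT, 1952 in 8-week db/db, 2652 in 16-week db/db and 2391 in HFD, which set the obese libraries 0.71 (0.68 to 0.74), 1.15 (1.12 to 1.18) and 1.0 (0.97 to 1.03) above WT on the log2 scale. The lowest level was thus found in WT. Fcer1g was at 1126 CPM in WT, 1451 in 8-week db/db, 2788 in 16-week db/db and 1487 in HFD. Here 16-week db/db stood alone, 1.31 (1.28 to 1.34) above WT and 0.91 (0.88 to 0.93) above HFD, while 8-week db/db and HFD lay 0.37 (0.33 to 0.40) and 0.40 (0.36 to 0.44) above WT.

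Syk, which carries the signal of both adaptors, had a different order. Its level was 178 (95% interval 169 to 187) CPM in WT, 190.4 (95% interval 184 to 197) in 8-week db/db, 66.8 (95% interval 62.9 to 70.8) in 16-week db/db and 232 (95% interval 224 to 241) in HFD. The 8-week db/db and WT levels were close (0.10 (0.01 to 0.19) on the log2 scale), HFD was 0.39 (0.30 to 0.48) above WT, and 16-week db/db was lower than every other library, at -1.41 (-1.52 to -1.30) to WT. In that library transcript levels moved with the span of the gene. When the 8182 genes tested were sorted by span into 5 groups of equal size, the median log2 difference between 16-week db/db and WT macrophages went from 0.37 in the shortest group to 0.14, -0.04, -0.27 and -0.52 in the longest, against a range of 0.12 to -0.09 in 8-week db/db and 0.16 to 0.08 in HFD, and stromal cells of 16-week db/db had a like gradient of 0.23 to -0.24. Tyrobp (3826 bases), Fcer1g (4794) and Trem2 (7747) are short genes and Syk (65620) is a long one. Taken relative to the median of genes of like span, and with 10 CPM added to every level, the 16-week db/db differences were 2.81 for Trem2, 0.77 for Tyrobp, 0.93 for Fcer1g and -1.02 for Syk. Trem2 and Syk thus remained beyond 2-fold, and Tyrobp and Fcer1g did not. The part of the gene span in these values was not tested beyond this.

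Among the Fcγ receptors, the inhibitory Fcgr2b was lower in each obese library. The activating receptors were below WT in both db/db libraries. In HFD, Fcgr1 and Fcgr4 were above WT and Fcgr3 slightly below it. Fcgr2b was at 394 (95% interval 381 to 407) CPM in WT, 229 (95% interval 223 to 236) in 8-week db/db, 111 (95% interval 106 to 116) in 16-week db/db and 94.6 (95% interval 89.3 to 100.2) in HFD, so that it lay -0.78 (-0.85 to -0.72), -1.83 (-1.91 to -1.74) and -2.06 (-2.15 to -1.96) from WT on the log2 scale. Its thinned share of cells was 30.4% in WT, 24.3% in 8-week db/db, 15.7% in 16-week db/db and 10.3% in HFD. Where every cell counted alike after thinning, the 16-week db/db difference was -1.03 in place of -1.83. Over 13 settings the Fcgr2b difference lay between -0.915 and -0.35 in 8-week db/db, -1.98 and -0.87 in 16-week db/db and -2.44 and -1.59 in HFD. Fcgr3, the low-affinity receptor, was at 435 CPM in WT, 373 in 8-week db/db, 312 in 16-week db/db and 402 in HFD. Its log2 differences to WT were -0.22, -0.48 and -0.11. Over the same settings its 16-week db/db difference lay between -0.55 and -0.12. The high-affinity receptor Fcgr1 was at 51.2 CPM in WT, 29.2 in 8-week db/db, 34.9 in 16-week db/db and 75.7 in HFD, lower than WT in both db/db libraries (-0.81 (-0.99 to -0.63) and -0.55 (-0.73 to -0.37)) and higher in HFD (0.56 (0.40 to 0.73)). Fcgr4, which binds IgG2 subclasses, was scarce and followed the same order, at 33.3 CPM in WT, 18.5 in 8-week db/db, 22.9 in 16-week db/db and 55.4 in HFD, with log2 differences of -0.84 (-1.07 to -0.62), -0.54 (-0.77 to -0.31) and 0.73 (0.53 to 0.94). In a random thinning, where every cell counted alike, the 16-week db/db difference of Fcgr4 was 0.01. Few Fcgr4 UMIs were left after thinning, and this value has no interval.

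**Figure D1:**
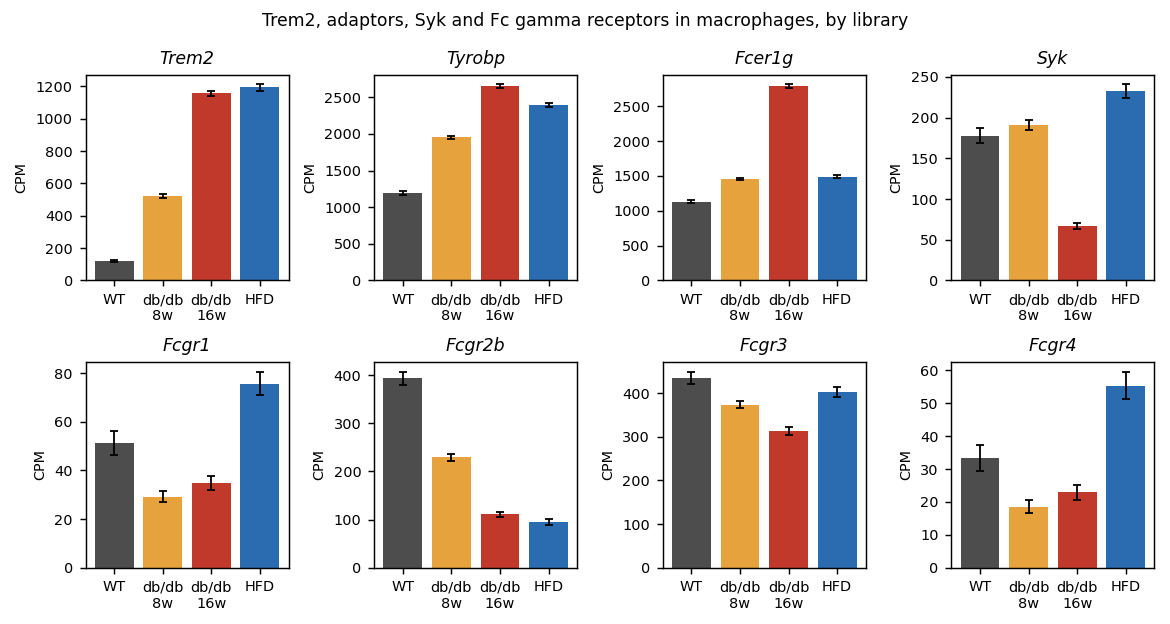
Level of each of the 8 genes in macrophages of the 4 libraries, in CPM on an axis that starts at 0, as a bar with its exact 95% Poisson interval (counting error only). Trem2 went from 119 CPM in WT to 1157 in 16-week db/db and 1194 in HFD, Fcgr2b from 394 in WT to 94.6 in HFD, and Syk was lowest in 16-week db/db at 66.8.

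Set against all genes, a 2-fold difference was common in 16-week db/db and rarer in 8-week db/db. With 10 CPM added, 2.93% of 7879 genes were at least 2-fold higher in 8-week db/db than in WT and 2.51% at least 2-fold lower. Of the 8 genes, 1 was higher (Trem2) and 0 were lower. In 16-week db/db the shares of 8182 genes were 13.3% higher and 15.9% lower, and 3 of the 8 genes were higher (Trem2, Tyrobp and Fcer1g) and 2 lower (Syk and Fcgr2b). With 10 CPM added, 0 of the 8 genes were at least 2-fold lower in 16-week db/db after 1 random thinning of the cells. Without the added CPM, the log2 difference of Syk lay between -1.49 and -1.10 in that library over 13 settings. In HFD the shares were 7.33% higher and 6.74% lower of 8250 genes. There 1 of the 8 was higher (Trem2) and 1 lower (Fcgr2b), and Tyrobp lay just under the limit. The median log2 difference of the 8 genes was -0.06, -0.42 and 0.44 in 8-week db/db, 16-week db/db and HFD, beside 0.01, -0.11 and 0.12 over all genes tested. The 3 comparisons share the WT library.

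Macrophages were then split by subset markers that exclude the 8 genes. LAM-gated cells carried at least 2 of Gpnmb, Spp1, Cd9, Mmp12, Itgax, Lgals3 and Fabp5, PVM-gated cells at least 2 of Lyve1, Folr2, Cd163, Cbr2, F13a1, Cd209f and Timd4, with at least 2 times the UMIs of the other list. The LAM-gated share was 2.30% in WT (29 cells), 39.1% in 8-week db/db (1292), 74.8% in 16-week db/db (1651) and 85.8% in HFD (1408). PVM-gated cells numbered 1105, 1498, 280 and 45 in that order, so that LAM values of WT and PVM values of HFD rest on few cells. Trem2 was higher in LAM-gated than in PVM-gated cells of each library. In LAM-gated cells it was at 332 CPM in WT, 856 in 8-week db/db, 1252 in 16-week db/db and 1266 in HFD, and in PVM-gated cells at 115 CPM in WT, 94.4 in 8-week db/db, 347 in 16-week db/db and 177 in HFD. On the log2 scale the LAM level was above the PVM level by 1.52 (1.24 to 1.80) in WT, 3.18 (3.07 to 3.30) in 8-week db/db, 1.85 (1.69 to 2.01) in 16-week db/db and 2.84 (2.34 to 3.37) in HFD. Cells of neither gate lay between, at 58.5 CPM in WT, 205 in 8-week db/db, 445 in 16-week db/db and 399 in HFD, except in WT, where they were lowest.

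Tyrobp shared this direction at a smaller size, with LAM levels of 1669 CPM in WT, 2489.8 in 8-week db/db, 2748 in 16-week db/db and 2463 in HFD that exceeded PVM levels by 0.53, 1.04, 0.68 and 0.78 on the log2 scale. Fcer1g separated the subsets little. Its LAM and PVM levels were 1130.2 and 1117 CPM in WT, 1386 and 1556 in 8-week db/db, 2775 and 2780 in 16-week db/db and 1503 and 1139 in HFD, so that both subsets of 16-week db/db were high. Syk was likewise low in both subsets of 16-week db/db, 64.5 CPM in LAM-gated and 85.5 in PVM-gated cells, against 145 to 235 in LAM- and PVM-gated cells of the other 3 libraries. Its LAM level was 0.57 (0.46 to 0.68) above the PVM level in 8-week db/db and -0.41 (-0.74 to -0.06) from it in 16-week db/db.

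The inhibitory receptor had the opposite pattern. Fcgr2b was at 421 (95% interval 406 to 436) CPM in WT, 459 (95% interval 443 to 475) in 8-week db/db, 681 (95% interval 628 to 736) in 16-week db/db and 301 (95% interval 227 to 391) in HFD in PVM-gated cells, and at 152 (95% interval 114 to 198) CPM in WT, 82.0 (95% interval 76.7 to 87.5) in 8-week db/db, 64.5 (95% interval 60.5 to 68.8) in 16-week db/db and 80.2 (95% interval 75.2 to 85.6) in HFD in LAM-gated cells, a difference of -1.47, -2.48, -3.40 and -1.91 on the log2 scale. PVM-gated cells of 16-week db/db thus held the highest Fcgr2b level of any subset, although macrophages of that library as a whole were lower than in WT. Fcgr4 was higher in LAM-gated cells in each library, by 1.19, 1.41, 1.12 and 1.82, whereas Fcgr3 was lower in WT and 8-week db/db, with log2 differences of -0.89 (-1.21 to -0.59) and -0.36 (-0.43 to -0.29). The Fcgr3 differences in 16-week db/db and HFD were within counting error, at -0.12 (-0.29 to 0.05) and -0.31 (-0.61 to 0.01). Fcgr1 was higher in LAM-gated cells by 0.91, 0.38 and 1.29 in WT and the db/db libraries and differed by -0.44 (-1.09 to 0.30) in HFD. Among all genes of 8-week db/db macrophages with 10 CPM added, 3.87% were at least 2-fold higher in LAM-gated cells and 5.35% lower, with 2 of the 8 genes higher (Trem2 and Tyrobp) and 1 lower (Fcgr2b). In 16-week db/db these shares were 3.93% and 11.1%, with 1 gene higher (Trem2) and 1 lower (Fcgr2b). LAM-gated cells were also the deeper ones, with medians of 6788 to 11037 UMIs against 2834 to 5381 in PVM-gated cells, and the part of depth in these values was not tested.

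**Figure D2:**
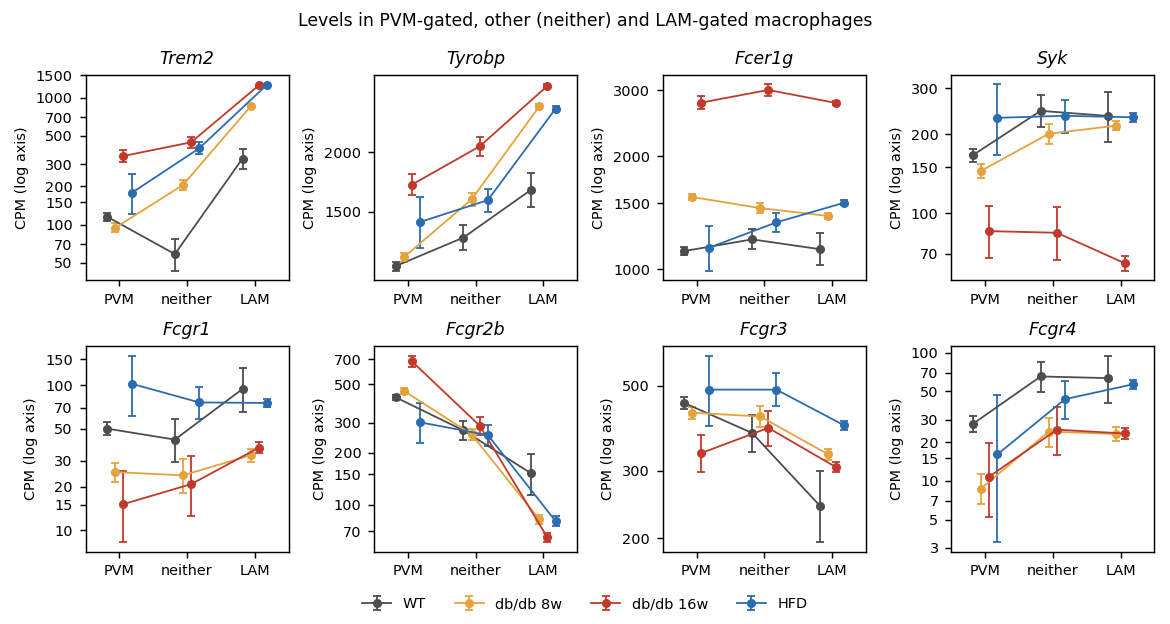
Level of each gene, in CPM on a logarithmic axis, in LAM-gated, PVM-gated and other macrophages of each library, with exact 95% Poisson intervals. In LAM-gated cells Trem2 went from 332 CPM in WT to 1266 in HFD and Fcgr2b stayed between 64.5 and 152, while PVM-gated cells held 301 to 681 CPM of Fcgr2b.

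The subset levels were recombined to see how much of a difference between libraries went with the shares of the subsets. These shares are of macrophage UMIs and not of cells, so deeper cells count for more. LAM-gated cells held 4.29% of macrophage UMIs in WT, 54.4% in 8-week db/db, 88.9% in 16-week db/db and 92.1% in HFD. With WT levels in each subset and only the obese library's subset shares, Trem2 would differ from WT by 0.93, 1.36 and 1.39 on the log2 scale in 8-week db/db, 16-week db/db and HFD. With the obese library's levels and WT shares it would differ by 0.22, 1.74 and 1.05. The 2 parts were thus of like size in 16-week db/db and HFD, while in 8-week db/db that of the subset shares was the larger of the 2. They did not add up to the whole differences of 2.14, 3.28 and 3.33, and the remainder belongs to neither part alone. With WT shares the LAM-gated level counts for only 4.29%. For Fcgr2b the shares alone gave -0.62, -1.18 and -1.27 and the levels alone 0.10, 0.64 and -0.46. In 16-week db/db the shares alone thus fell short of the whole difference of -1.83. The Fcgr2b level of that library was below WT in LAM-gated cells and above WT in PVM-gated cells, and WT shares give LAM-gated cells little weight. For Fcer1g in 16-week db/db the levels alone gave 1.32 and the shares 0.01, and for Syk -1.07 and 0.38. The WT level of the LAM subset rests on the 29 LAM-gated cells of that library.

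The gate was replaced by a graded measure, in which each macrophage was thinned to 1000 UMIs and binned by its UMIs of the 7 LAM markers (0, 1 to 2, 3 to 5, 6 to 10, over 10). Trem2 was higher in each next bin in all 3 obese libraries. In 8-week db/db it went from 86.2 (67.6 to 108) CPM without a LAM marker UMI to 125, 363, 736 and 1236 (1125 to 1355). In 16-week db/db the levels were 264 (187 to 362), 383, 731, 1081 and 1417 (1339 to 1499), and in HFD 215 (136 to 323), 452, 699, 1116 and 1558 (1453 to 1669). Among cells with over 10 LAM marker UMIs, 61.7% in 8-week db/db, 72.9% in 16-week db/db and 72.8% in HFD had a Trem2 UMI. WT filled the first 3 bins with at least 20 cells, at 88.3 (70.2 to 109.6), 101 and 370.4 (178 to 681) CPM. In the bin with no LAM marker UMI, Trem2 was thus at a like level in WT and 8-week db/db and higher in 16-week db/db and HFD.

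Tyrobp followed the same gradient at a smaller size, from 1158 to 3052 CPM between the first and the last bin in 8-week db/db, 1917 to 3116 in 16-week db/db and 1533 to 2829.8 in HFD. Fcgr2b ran the other way, from 444 to 27.2, 528 to 57.0 and 262 to 28.7. Fcer1g was nearly flat within each obese library, at 1543 and 1418 in 8-week db/db, 2993 and 2773 in 16-week db/db and 1439 and 1604 in HFD. In WT it was at 981 (918 to 1046), 1245 (1118 to 1384) and 1556 (1121 to 2103) CPM over the 3 bins of at least 20 cells. Syk had no steady order over the bins, at 165 and 163 in 8-week db/db, 83.3 and 57.0 in 16-week db/db and 215 and 205 in HFD. The difference in Fcer1g and Syk between 16-week db/db and the other libraries was thus present in every bin of at least 20 cells by value.

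**Figure D3:**
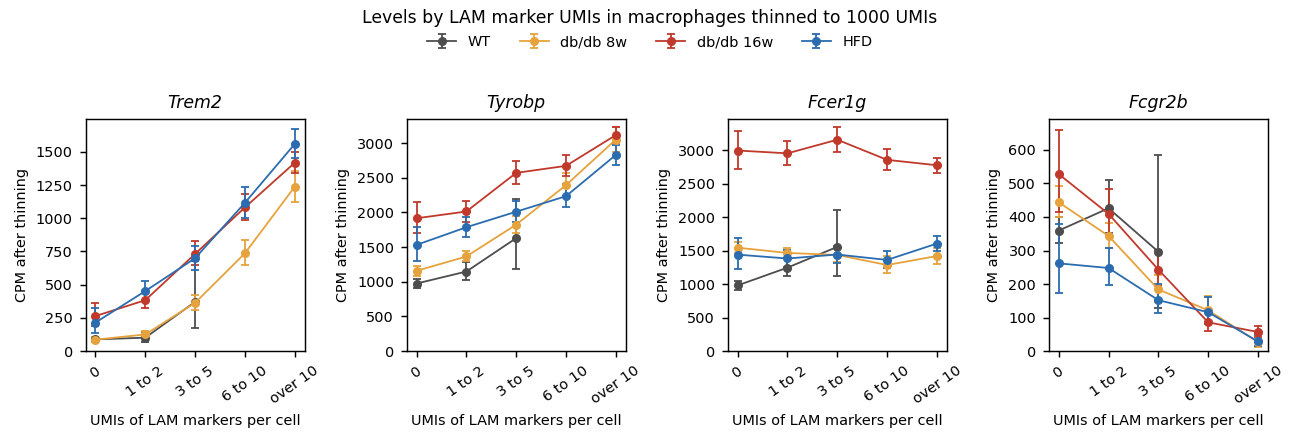
Level of Trem2, Tyrobp, Fcer1g and Fcgr2b, in CPM, in macrophages thinned to 1000 UMIs and grouped by their UMIs of 7 LAM markers, one line per library with exact 95% Poisson intervals, for groups of at least 20 cells. Trem2 went from 86.2 to 1236 CPM over the bins of 8-week db/db, Fcgr2b from 444 to 27.2, and Fcer1g stayed at 1543 to 1418 between the first and the last bin.

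The balance of activating and inhibitory Fcγ receptors was followed as the UMIs of Fcgr1, Fcgr3 and Fcgr4 over those of Fcgr2b in the same cells. As 3′ counts of different genes are not comparable in level, only the change of this ratio between groups is read. It was 1.32 (1.26 to 1.38) in WT, 1.84 (1.77 to 1.90) in 8-week db/db, 3.33 (3.16 to 3.51) in 16-week db/db and 5.63 (5.29 to 5.99) in HFD, and no 2 of these intervals overlapped. In LAM-gated cells the ratio was 2.64 (1.92 to 3.66), 4.73 (4.40 to 5.08), 5.69 (5.31 to 6.10) and 6.56 (6.12 to 7.04) in the same order, and in PVM-gated cells 1.26 (1.20 to 1.32), 1.0 (0.952 to 1.05), 0.528 (0.461 to 0.604) and 2.02 (1.45 to 2.83). The ratio was higher in LAM-gated cells of each library, and in PVM-gated cells of both db/db libraries it was below that of WT. Without Fcgr1 it was 1.19, 1.71, 3.02 and 4.83 in WT, 8-week db/db, 16-week db/db and HFD.

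**Figure D4:**
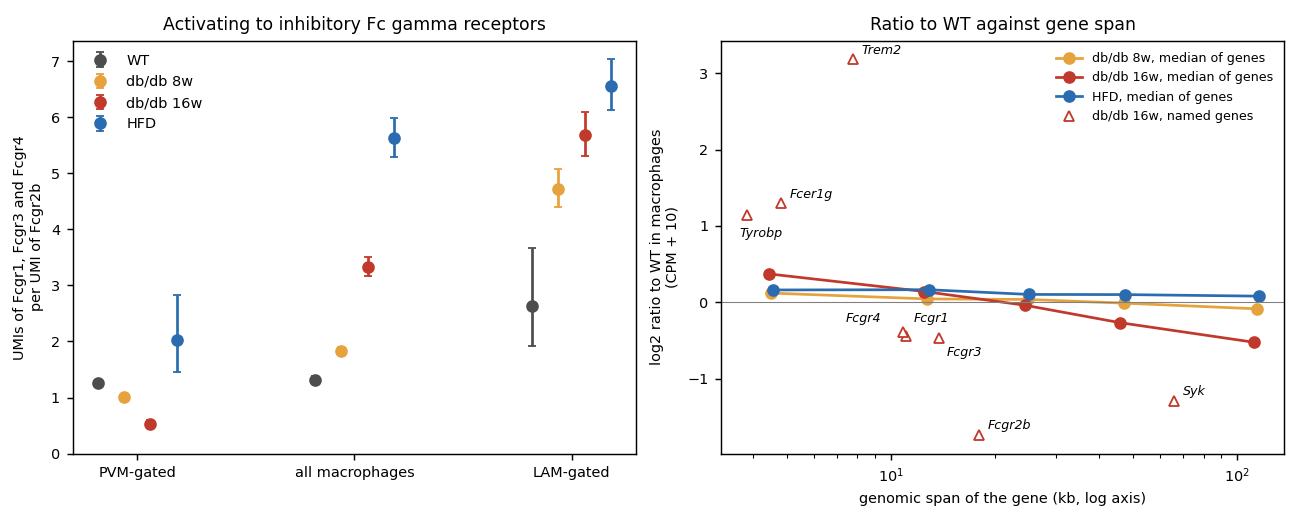
Left, ratio of activating (Fcgr1, Fcgr3 and Fcgr4) to inhibitory (Fcgr2b) Fcγ receptor UMIs in all, LAM-gated and PVM-gated macrophages of each library with exact 95% intervals. Right, log2 ratio to WT in macrophages with 10 CPM added against gene span in kb on a logarithmic axis, as the median of each of 5 groups of genes (filled points and lines, per library) and for the 8 genes in db/db 16w (open triangles). The ratio over all macrophages went from 1.32 in WT to 5.63 in HFD, and the 16-week db/db medians from 0.37 in the shortest to -0.52 in the longest genes.

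LAM-gated cells were further divided by cell cycle and by inflammatory genes. Cells with at least 2 of 9 cycling markers (Mki67, Top2a and others) numbered 176 in 8-week db/db, 548 in 16-week db/db and 177 in HFD. Tyrobp was lower in cycling than in other LAM-gated cells, at log2 differences of -0.35 (-0.40 to -0.31), -0.62 (-0.65 to -0.59) and -0.20 (-0.24 to -0.15), and so were Fcgr3 (-0.31, -0.67 and -0.36) and Fcgr4 (-0.69, -0.76 and -0.44). Trem2 was lower in cycling cells of the db/db libraries (-0.36 (-0.44 to -0.28) and -0.23 (-0.27 to -0.19)) and at 0.01 (-0.05 to 0.07) in HFD. LAM-gated cells with at least 3 of the 5 inflammatory genes had Trem2 at -0.35 (-0.43 to -0.27), -0.22 (-0.30 to -0.14) and 0.12 (0.07 to 0.17) relative to the others in 8-week db/db, 16-week db/db and HFD, and in 8-week db/db their Syk was 0.64 (0.44 to 0.85) higher.

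Macrophages held most Trem2 UMIs of the tissue, with 92.7% in WT, 89.8% in 8-week db/db, 88.5% in 16-week db/db and 90.7% in HFD, and cells without a lineage held 3.51 to 10.9%. Over the pooled cells of all libraries Trem2 was at 792 CPM in macrophages, 60.4 (35.2 to 96.7) in 126 neutrophils, 46.3 (28.7 to 70.8) in 94 monocytes, 12.9 (5.19 to 26.6) in 160 T cells, 10.4 in 11891 stromal cells and 38.9 in 2685 endothelial cells. Without 16-week db/db, Trem2 was at 23.5 CPM in neutrophils, 43.3 in monocytes and 644 in macrophages. Such low levels as in stromal cells can come from free RNA in droplets. Csf1r, Aif1 and Ms4a6c, genes of macrophages, served as a tracer of that RNA, and were found in stromal cells at 0.868 to 4.99% and in endothelial cells at 3.38 to 5.28% of the macrophage level, in the libraries with at least 50 such cells. Lgmn, also planned as a tracer gene, was left out after the data were seen, as it raised the tracer level in stromal cells to 3.62 to 10.4%. Whether stromal cells transcribe Lgmn was not tested. In stromal cells Trem2 was at 0.645 to 1.08, Tyrobp at 0.771 to 1.07 and Fcer1g at 0.809 to 1.09 times the level this predicts. With Lgmn kept, as planned, these ranges were 0.134 to 0.381, 0.160 to 0.426 and 0.172 to 0.421. The stromal values of these genes were thus at most 1.09 times the background set by the tracer of 3 genes and below that of 4. In endothelial cells, without Lgmn, Trem2 was at 0.594, 0.661 and 0.675 times the predicted level in 8-week db/db, 16-week db/db and HFD, Tyrobp at 1.11, 1.36 and 0.849 times and Fcer1g at 1.5, 1.14 and 0.865 times.

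The adaptors and Syk were not restricted to macrophages. Tyrobp was at 3274 (3066 to 3492) CPM in neutrophils, 2249 (2113 to 2391) in monocytes, 1597 (1325 to 1909) in 25 NK cells and 1045 (942 to 1156) in 48 dendritic cells, against 46.1 (29.9 to 68.1) in T cells and 37.8 (13.9 to 82.4) in 61 B cells. Fcer1g had a similar distribution, with 1398 CPM in monocytes, 1304 in neutrophils and 1294 in NK cells, and reached 2574 (1760.3 to 3633) in 7 mast cells, where it is part of the high-affinity IgE receptor. Without 16-week db/db only 3 mast cells remained, with Fcer1g at 1470.4 CPM, while Tyrobp stood at 3249 CPM in neutrophils, 2166 in monocytes and 1732 in NK cells. In neutrophils of 8-week db/db, the only library with at least 50 of them (108), the tracer reached 20.2% of the macrophage level. Relative to the level this predicts, Tyrobp was at 8.60, Fcer1g at 4.15, Fcgr3 at 4.77 and Syk at 7.43 times. Fcgr4 was at 13.5 times on few UMIs (17 in neutrophils of all libraries), Fcgr2b at 1.59 times and Trem2 at 0.262 times. Syk, which also signals for the B cell receptor, was at 423 (328 to 537) CPM in B cells and 5.54 (1.14 to 16.2) in T cells, where ZAP-70 takes its place. Fcgr2b, the Fcγ receptor of B cells, was at 88.3 (48.3 to 148) in B cells. In NK cells 0 UMIs of Fcgr2b were seen, which allows up to 39.6 CPM, and the 4 of Fcgr3 gave 52.8 (14.4 to 135) CPM. In neutrophils 0 UMIs of Fcgr1 were seen, which allows up to 10.7 CPM.

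Syk also had a stromal signal. It was at 27.8 CPM in stromal cells of WT, 18.4 in 8-week db/db, 3.49 in 16-week db/db and 14.3 in HFD, or 18.0, 3.77, 2.41 and 1.24 times the level predicted by the tracer, and 4.32, 1.22, 0.501 and 0.644 times with Lgmn included. Stromal cells held 33.7% of all Syk UMIs in WT and macrophages 53.5%, whereas macrophages held 71.7 to 78.8% of them in the obese libraries. These shares depend on cell numbers too. Stromal cells were 68.8% of kept cells in WT, 45.3% in 8-week db/db, 17.2% in 16-week db/db and 27.8% in HFD. The 16-week db/db level in stromal cells was again the lowest, in a library where long genes were lower in stromal cells too. In endothelial cells, without Lgmn, Syk was at 0.815, 3.41 and 1.38 times the predicted level in 8-week db/db, 16-week db/db and HFD. With Lgmn included these values were 0.795, 3.59 and 1.21.

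**Figure D5:**
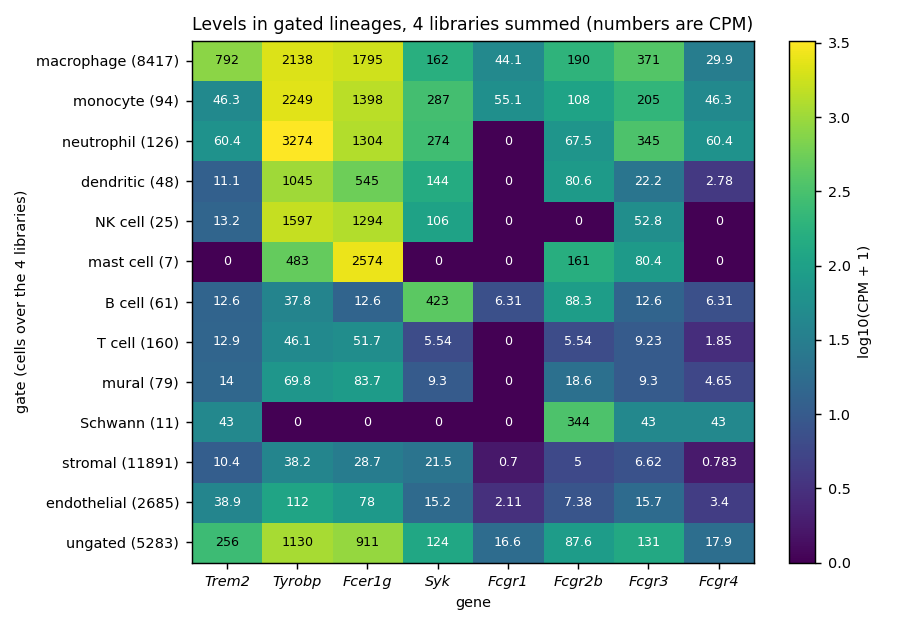
Level of each gene in each lineage over the pooled cells of the 4 libraries, as colour of log10(CPM + 1) with the CPM printed in each field. Trem2 stood at 792 CPM in macrophages and at most at 60.4 in any other assigned lineage, while Tyrobp and Fcer1g exceeded 500 CPM in neutrophils, monocytes, NK and dendritic cells as well.

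Beyond these genes, 64 others of the pathway were listed by role. All levels in this and the next paragraph are those of macrophages. Of the 64 genes, 37 or 38 passed 10 CPM in either library of a comparison. Of them 3 were at least 2-fold higher and 2 lower than WT in 8-week db/db, 5 and 7 in 16-week db/db, and 7 and 3 in HFD. Their median log2 differences were 0.11, -0.10 and 0.37, beside 0.01, -0.11 and 0.12 over all genes. The share past 2-fold in 8-week db/db (3 of 37 higher) stands beside 2.93% of all genes, that in 16-week db/db (5 of 38) beside 13.3% and that in HFD (7 of 38) beside 7.33%. In the lower direction, 2 of 37, 7 of 38 and 3 of 38 stand beside 2.51%, 15.9% and 6.74% of all genes. Of the 13 genes downstream of Syk, 12 were tested, with 2 higher and 0 lower in 8-week db/db, 1 and 2 in 16-week db/db and 3 and 1 in HFD. Of 10 listed lectins and other receptors, mainly but not all ITAM-coupled (Pirb is among them), 7 or 8 were tested. In the same order 1 was higher and 0 lower, 3 and 2, and 2 and 1. Another list of 10 genes, mainly inhibitory receptors and phosphatases but also Lilra5 and Cblb, had 8 or 9 tested. Of these 0, 1 and 2 were higher and 0 lower in each library. Among the membrane-proximal adaptors, Lat2 (NTAL), which SYK phosphorylates, was at 21.0 CPM in WT, 104 in 8-week db/db, 175 in 16-week db/db and 217 in HFD, and its log2 differences to WT of 2.31, 3.06 and 3.37 were close to those of Trem2. Lcp2 (SLP-76), a scaffold downstream of SYK, was instead at 128 CPM in WT, 105 in 8-week db/db, 29.2 in 16-week db/db and 58.1 in HFD. Malt1, the protease of the CARD9 and BCL10 complex, was at 88.4 CPM in WT, 217 in 8-week db/db, 23.5 in 16-week db/db and 246 in HFD, higher than WT in 8-week db/db and HFD and lower in 16-week db/db.

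Of the receptors that use such adaptors, Cd300c2, an activating member of the CD300 family, was at 50.7 CPM in WT, 126 in 8-week db/db, 263 in 16-week db/db and 332 in HFD. Clec4e (Mincle), a lectin that pairs with the γ chain and is induced in inflamed macrophages, was at 123 CPM in WT, 208 in 8-week db/db, 23.4 in 16-week db/db and 19.5 in HFD. The summed inflammatory genes, too, were lowest in 16-week db/db and HFD. Clec12a, an inhibitory lectin, was at 63.7 CPM in WT, 98.3 in 8-week db/db, 159 in 16-week db/db and 324 in HFD. The neonatal Fc receptor Fcgrt, which recycles IgG, was lower in each obese library, at 882 CPM in WT, 381 in 8-week db/db, 144 in 16-week db/db and 166 in HFD, and Fcrls, a receptor-like gene of resident macrophages, was at 119 CPM in WT, 52.2 in 8-week db/db, 2.95 in 16-week db/db and 62.0 in HFD. Lyn, the Src-family kinase that phosphorylates ITAMs, was at 105 CPM in WT, 127 in 8-week db/db, 141 in 16-week db/db and 160.3 in HFD, and with 10 CPM added none of the 5 listed Src-family kinases passed 2-fold in any library. Lyn is named here for its role, and so are Apoe and Hcst, chosen after their values were seen. Apoe, a ligand of TREM2, was at 12958 CPM in WT, 10566 in 8-week db/db, 3267 in 16-week db/db and 6935 in HFD. Hcst (DAP10), the other adaptor of TREM2, was at 76.4 CPM in WT, 55.5 in 8-week db/db, 77.5 in 16-week db/db and 39.1 in HFD. The remaining TREM family genes Trem1, Trem3, Treml1, Treml2 and Treml4 stayed under 10 CPM in macrophages of each library. So did the 4 IgG heavy chain genes, which code for ligands of the Fcγ receptors. Levels of these genes in other lineages are not given here.

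Finally, genes were ranked by the likeness of their pattern over 20 groups of a library and a lineage or macrophage subset, as Pearson correlation of log2(CPM + 10) among 6424 genes. These genes reached at least 50 CPM in some group and were in no gate list, so the gate markers were not ranked. The groups share libraries, depth and free RNA, so the values only describe the pattern. Closest to Trem2 were Slc37a2 (0.945), Abhd12 (0.940), Ube2l3 (0.937), Ftl1 (0.932) and Gusb (0.930). Gusb codes for the lysosomal β-glucuronidase and Ftl1 for the ferritin light chain. Over the 10 macrophage groups alone their correlations were 0.861, 0.930, 0.863, 0.938 and 0.942. Closest to Tyrobp were Spi1 (0.990), which codes for PU.1, Fcer1g (0.975), Cd300a (0.970), Clec4a2 (0.970) and Csf2ra (0.969). Over macrophage groups alone Spi1 (0.942) and Clec4a2 (0.813) stayed close to Tyrobp, whereas Fcer1g (0.505), Csf2ra (0.471) and Cd300a (0.458) did so less. Without 16-week db/db, over 15 groups, the 5 genes closest to Trem2 had correlations of 0.905 to 0.965 and those closest to Tyrobp 0.965 to 0.993.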

How the data were processed

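Gene expression was measured by droplet single-cell RNA sequencing in 4 libraries of BAT stromal vascular cells, 1 for each of WT, 8-week db/db, 16-week db/db and HFD, as given by the sample labels. The authors deposited whole-number counts of UMIs for 32285 genes and each called barcode, not normalized. Per the labels they were made with Cell Ranger 7.1.0 on mm10, and per the file headers with cellranger 6.0.0. The count files hold 8318 to 18306 barcodes and 28504069 to 61828295 UMIs per library.

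The genes, the pathway lists, the marker lists and the comparisons were chosen with earlier results of these data known. As in the study, cells were kept if they had between 250 and 6000 genes, 500 to 30000 UMIs and a mitochondrial share below 15%. No clustering was used. A cell received the lineage whose list had the most UMIs, if at least 3 of its markers were seen and its UMIs were at least 2 times those of every other list. Doublets were kept, and in an alternative the cells with the highest Scrublet scores (scanpy 1.11.5) were removed at 0.8% per 1000 barcodes, 5.57 to 15.4% of cells. Levels are summed counts in CPM with exact Poisson 95% intervals, ratios have exact conditional binomial intervals and shares Clopper-Pearson intervals. Where 0 counts were seen, the upper limit is 3 counts. For counts of genes past 2-fold, 10 CPM were added and genes of at least 10 CPM in either group were used. Other pathway genes were named where they reached 20 CPM in 1 library and 2-fold in at least 2 of the 3 obese libraries. The count of genes past 2-fold was tested on simulated data with known changes. Coordinates and transcripts came from GENCODE on GRCm38, the same assembly as mm10, and promoters from RefSeq. Analyses ran in Python 3.11.15 with numpy 2.4.6, pandas 2.3.3, scipy 1.17.1 and matplotlib 3.10.9. Other limits, gates, added values and marker lists were tried, as given in the closing section.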

Additional observations from a re-analysis of the deposited data

Results flagged for a closer look

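Syk differed in direction between the libraries of obese mice. Its log2 difference to WT in macrophages was 0.10 in 8-week db/db, -1.41 in 16-week db/db and 0.39 in HFD. Within libraries, its LAM-gated level was 0.57 above the PVM-gated level in 8-week db/db and -0.41 from it in 16-week db/db. Fcgr1 stood at -0.81 in 8-week db/db, -0.55 in 16-week db/db and 0.56 in HFD relative to WT, and Fcgr4 at -0.84, -0.54 and 0.73 in the same order, so that the db/db libraries and HFD lay on opposite sides of WT. With 1 library per group these differences between libraries were not tested.

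Cells that received no lineage also carried Trem2, outside the macrophages that the comparisons use. Their Trem2 level was 158.8 CPM in 2700 cells of 8-week db/db, 584.5 CPM in 1263 cells of 16-week db/db and 189.6 CPM in 822 cells of HFD, against 18.7 CPM in 498 cells of WT.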

How the results depend on the processing

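With 1 library per group there was no test and no replicate to leave out. No paired analysis was possible because each group has 1 library and no result comes from a test. The Trem2 difference to WT kept its direction in each setting. In thinned cells Fcgr4 in 16-week db/db went from -0.54 to 0.01 and Fcgr3 in HFD from -0.11 to 0.01. These thinned values come from 1 random draw and have no interval, so their sign is not settled. With library levels at WT subset shares Fcgr2b in 16-week db/db went from -1.83 to 0.64, among other members that changed sign at those shares. Settings that use gene span, subset shares, a tracer without Lgmn, the pooled lineages, lineages without 16-week db/db or added macrophage markers were chosen after seeing the data.

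The log2 difference of Trem2 to WT, 2.14, 3.28 and 3.33 in 8-week db/db, 16-week db/db and HFD, stayed within counting error in 30 of 48 values. Apart from the recombined subset shares, it lay between 1.76 and 2.18 in 8-week db/db, 2.91 and 3.39 in 16-week db/db and 3.14 and 3.38 in HFD. In 8-week db/db it moved to 1.85 as a mean over cells, 1.76 in thinned cells and 2.02 relative to genes of like span. In 16-week db/db it moved to 3.38 without a mitochondrial limit, 3.13 without C1q genes in the gate, 3.39 when centred on the median gene and 2.91 relative to genes of like span. In HFD it moved to 3.14 without a mitochondrial limit, 3.22 in thinned cells, 3.21 when centred, 3.21 with Csf1r, Ctss and Lyz2 in the gate and 3.17 relative to genes of like span. Library levels at WT subset shares of UMIs gave 0.22, 1.74 and 1.05, and WT levels at library shares of UMIs 0.93, 1.36 and 1.39.

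Counts past 2-fold stayed the same in 85 of 96 values. At 1.5-fold 8-week db/db had 2 genes higher and 3 lower, and HFD 3 higher. In 16-week db/db 1 gene was higher relative to genes of like span, and 1 was lower as a mean over cells and 0 in thinned cells. The thinned counts rest on 1 random draw. In HFD 2 were higher with a gate lead of 5, as a mean over cells, in thinned cells, without mitochondrial UMIs and without the highest Scrublet scores. Between LAM- and PVM-gated cells 1 gene was higher in 8-week db/db with a subset lead of 1, and 2 in 16-week db/db with a lead of 5. Without Lgmn in the tracer, 7 in place of 4 stromal and endothelial values exceeded 2 times the expected level. The Fcγ receptor ratio without Fcgr1 was 1.19, 1.71, 3.02 and 4.83. The causes of these shifts were not tested.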
